A study of Mus musculus with 2 samples.

Results

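Hemoglobin-rich cells were examined in single cell data from newborn mouse lung. They were the cells in which the 4 adult globin genes *Hba-a1*, *Hba-a2*, *Hbb-bs* and *Hbb-bt* together held at least 25% of all unique molecular identifiers (UMIs, each counting 1 captured transcript). The rule kept 154 of 9944 deposited cells, 97 of 2389 in Batch 1 and 57 of 7555 in Batch 2. Membership was set by these measured values, so the globin levels themselves are given as a description without a test. The other transcripts of these cells were compared with those of the 9790 remaining cells, with adult globin UMIs left out of every total.

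Whole lungs of wild type C57BL/6J mice at postnatal day 1 were dissociated and captured by Drop-seq, a droplet method that counts transcripts from their 3′ ends. Each batch was 1 mouse, no treatment was given, and both mice share strain, genotype and age. The dissociation included a red blood cell lysis step, which limits these cells as a sample of the blood in the lung. The deposited matrices held 4434206 UMIs in Batch 1 and 23263012 in Batch 2, and every deposited cell had at least 500 detected genes, so cells with less RNA could not be members.

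Red blood cells arise from erythroid progenitors that fill with hemoglobin, a tetramer of alpha and beta globin chains that each hold a heme group. During terminal maturation the cell makes heme from glycine and iron, builds a spectrin-based membrane skeleton, clears its organelles and, in mammals, expels its nucleus, leaving a reticulocyte that still carries globin mRNA. Around birth, mouse erythropoiesis moves from liver to spleen and bone marrow, and reticulocytes circulate in large numbers, also through the lung.

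The promoters of *Hba-a1*, *Hbb-bs* and *Hbb-bt*, 3 of the 4 globin genes used by the rule, of *Alas2*, the erythroid enzyme that starts heme synthesis, and of *Rsad2* and *Isg15*, a pair of interferon-inducible genes described further on, are shown because these genes were high in hemoglobin-rich cells. Each run is the 250 bases before the RefSeq start site on GRCm38.p6, written 5′ to 3′ on the gene's strand. For the first 4 genes, capitals mark matches on either strand to a GATA motif (GATA with A or T before it and A or G after it), a CACCC motif (CCNCNCCC) and a CCAAT box, whose matches can overlap. For *Rsad2* and *Isg15*, capitals mark an interferon-stimulated response element (GAAA, 2 free bases, then GAAA) on either strand.
Hba-a1 (chr11:32283422-32283671, + strand): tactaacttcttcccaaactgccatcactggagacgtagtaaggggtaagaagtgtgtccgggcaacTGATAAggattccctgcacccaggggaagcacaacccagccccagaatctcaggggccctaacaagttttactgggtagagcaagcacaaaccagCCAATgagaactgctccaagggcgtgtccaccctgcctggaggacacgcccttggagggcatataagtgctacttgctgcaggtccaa
Hbb-bs (chr7:103827929-103828178, - strand): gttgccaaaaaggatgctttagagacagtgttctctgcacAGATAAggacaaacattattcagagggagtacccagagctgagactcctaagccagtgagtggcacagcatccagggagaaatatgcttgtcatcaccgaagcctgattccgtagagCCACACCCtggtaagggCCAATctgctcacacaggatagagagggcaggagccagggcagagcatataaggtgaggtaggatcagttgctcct
Hbb-bt (chr7:103813924-103814173, - strand): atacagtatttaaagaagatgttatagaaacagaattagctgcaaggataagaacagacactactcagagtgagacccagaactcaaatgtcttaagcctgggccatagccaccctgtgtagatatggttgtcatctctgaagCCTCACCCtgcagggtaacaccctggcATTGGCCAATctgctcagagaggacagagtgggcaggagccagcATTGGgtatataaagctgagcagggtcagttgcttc
Alas2 (chrX:150547167-150547416, + strand): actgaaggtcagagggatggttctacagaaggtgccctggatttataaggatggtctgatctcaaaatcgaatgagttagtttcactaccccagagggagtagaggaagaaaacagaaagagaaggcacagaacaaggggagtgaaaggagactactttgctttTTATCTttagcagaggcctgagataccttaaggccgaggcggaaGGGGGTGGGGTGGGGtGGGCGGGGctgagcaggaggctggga
Rsad2 (chr12:26456453-26456702, - strand): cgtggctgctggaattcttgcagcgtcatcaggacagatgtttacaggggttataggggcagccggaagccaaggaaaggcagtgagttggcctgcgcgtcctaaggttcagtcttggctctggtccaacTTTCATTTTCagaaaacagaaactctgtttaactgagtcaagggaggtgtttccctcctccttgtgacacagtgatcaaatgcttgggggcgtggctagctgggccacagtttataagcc
Isg15 (chr4:156200819-156201068, - strand): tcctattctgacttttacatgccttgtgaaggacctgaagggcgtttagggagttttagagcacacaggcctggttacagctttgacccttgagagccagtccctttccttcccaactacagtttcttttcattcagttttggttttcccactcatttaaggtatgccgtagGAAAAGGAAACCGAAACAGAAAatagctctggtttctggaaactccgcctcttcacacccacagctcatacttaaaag
Of all 32851 listed promoters of this length, 26.5% held the GATA motif, 45.9% the CACCC motif, 33.8% the CCAAT box and 2.98% the interferon element. *Hbb-bs* and *Hbb-bt* both held CACCC and CCAAT matches, while the GATA match of *Hbb-bs*, at -210 to -205 from the start, had no counterpart in these letters in the *Hbb-bt* window. The *Alas2* window held 1 GATA match and 4 CACCC matches near its start, 3 of them overlapping. *Isg15* held 3 overlapping interferon elements and *Rsad2* held 1. Of the 19 listed erythroid markers, which include globins of the rule, 11 had a listed promoter, and 8 of these held the GATA motif, 7 the CACCC motif and 8 the CCAAT box. The GATA motif was in 3 of 6 heme synthesis promoters and 5 of 12 membrane and skeleton promoters. A match describes letters only and is not a shown binding site.

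Hemoglobin-rich cells made up 4.06% of Batch 1 cells (Wilson 95% interval 3.34 to 4.93) and 0.754% of Batch 2 cells (0.583 to 0.976), where intervals cover counting error only. The batches differed in the whole deposit too: adult globins took 6.93% of all UMIs in Batch 1 and 1.31% in Batch 2. With 1 mouse per batch, mouse, dissociation and library cannot be told apart. The members held 58.7% of the adult globin UMIs of Batch 1 and 60.6% of those of Batch 2, so the rest of the globin RNA lay in cells outside the rule.

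Globin RNA was present in nearly every remaining cell. All 2292 remaining cells of Batch 1 and 98.8% of the 7498 remaining cells of Batch 2 had at least 1 adult globin UMI. The median globin share of the remaining cells was 2.96% in Batch 1 and 0.473% in Batch 2. Against this background the members had median shares of 53.6% and 60.6%, with maxima of 85.9% and 87.1%.

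The threshold did not fall in an empty range. The 3 members nearest to it had shares of 25.1, 25.2 and 26.3% in Batch 1 and 25.8, 25.8 and 30.1% in Batch 2. The 3 nearest cells outside had 24.8, 24.1 and 23.9% in Batch 1 and 23.6, 21.3 and 21.2% in Batch 2. Between 10 and 25% lay 49 cells of Batch 1 and 21 cells of Batch 2. The members were spread over 25 to 50% (43 and 19 cells in the respective batches), 50 to 75% (49 and 27 cells) and at least 75% (5 and 11 cells).

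**Figure D1:**
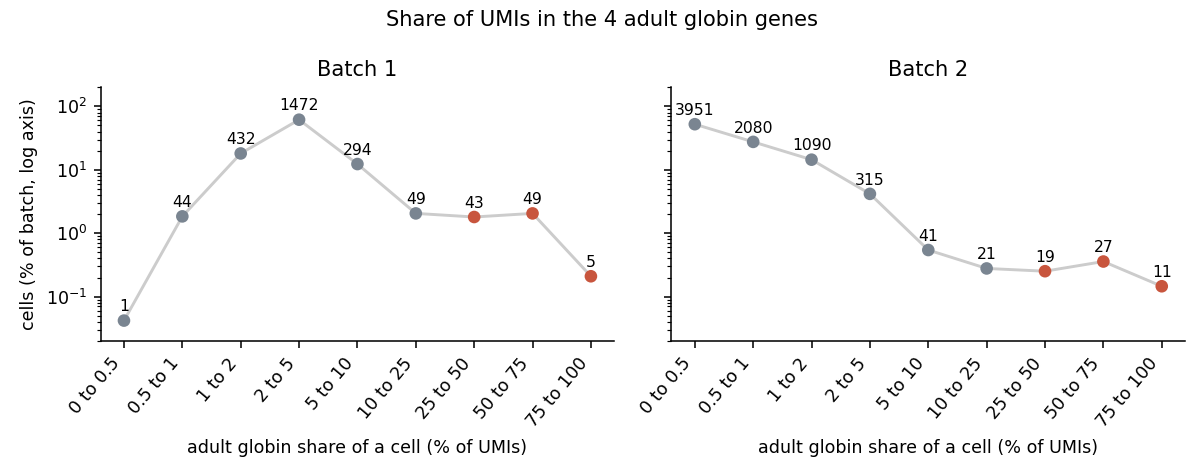
Cells of each batch by adult globin share (percent of UMIs, unequal intervals), with the percent of the batch on a log axis and the number of cells above each point. Hemoglobin-rich cells are red. Most Batch 1 cells lay between 2 and 5% (1472 cells) and most Batch 2 cells under 0.5% (3951 cells), and both batches kept a tail above 25%.

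The 4 adult globins took near-equal parts of the globin RNA in the members. In Batch 1 members, *Hba-a1* took 25.3%, *Hba-a2* 25.2%, *Hbb-bs* 26.7% and *Hbb-bt* 22.8% of adult globin UMIs. In Batch 2 members the same genes took 24.5, 24.3, 27.4 and 23.7%. Alpha globins together took 50.5 and 48.9%, close to the 1 to 1 ratio of chains in the protein. The alpha genes share 537 aligned bases of a 554-base *Hba-a2* transcript, and 183 of the last 200 bases, so the split between *Hba-a1* and *Hba-a2* is uncertain. *Hbb-bs* and *Hbb-bt* are more easily told apart, with 160 of their last 200 bases identical.

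The beta globin pair was split differently in members and remaining cells. *Hbb-bt* held 46.0% of beta globin UMIs in Batch 1 members (45.7 to 46.3) and 38.1% in the remaining cells (37.7 to 38.5). In Batch 2 it held 46.4% in members (46.1 to 46.7) and 37.8% in the remaining cells (37.4 to 38.2). Cells with 5 to 25% globin lay between, at 40.7 and 43.3%. Over single members, the *Hbb-bt* part ranged from 37.5 to 48.3% in Batch 1 and from 40.9 to 48.4% in Batch 2. These shares belong to the genes used by the rule and are described without a test.

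Of 12104 genes tested by edgeR's quasi-likelihood test on summed counts with the batch as a block, 205 (1.69%) were higher and 56 (0.463%) were lower in hemoglobin-rich cells at a Benjamini-Hochberg adjusted p under 0.05. The fit had 4 sums, members and remaining cells of each mouse, so its p-values rest on 2 animals. The median log2 fold change of all tested genes was -0.17, and 241 of the 261 called genes had the same direction in both batches. Without the batch block, 47 genes were higher and 0 lower, with 673 genes at an unadjusted p under 0.05.

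Erythroid genes outside the rule were far higher in the members. Beyond the globins, 17 erythroid markers were in the matrices, 14 passed the expression filter, and all 14 were higher, with a median log2 fold change of 6.84. Because the filter keeps genes through the group where they are high, this count is a description. Their summed level was 5749 CPM (UMIs scaled to a total of 1000000 non-globin UMIs) in Batch 1 members against 489 in the remaining cells, and 13058 against 246 in Batch 2. At least 1 UMI of the list was seen in 89.7 and 96.5% of members and in 45.4 and 40.3% of remaining cells. With each cell thinned to 400 non-globin UMIs, these shares were 72.2 and 84.2% against 19.1 and 10.5%.

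*Alas2* had the smallest adjusted p of all tested genes. Its gene lies at chrX:150547375-150570638 (GRCm38). Batch 1 members held 1348 CPM and remaining cells 28.9 CPM, and Batch 2 members held 2343 CPM and remaining cells 6.22 CPM. The log2 fold change was 7.01 (SE 0.30, adjusted p = 7.94e-115, edgeR). An *Alas2* UMI was present in 65 of 97 and 48 of 57 members, compared with 4.58 and 1.75% of remaining cells.

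Among markers of the red cell surface, *Slc4a1*, the band 3 anion exchanger, was higher by 7.05 on the log2 scale (SE 0.41). It was at 184 and 1253 CPM in members and at 8.05 and 2.10 CPM in remaining cells. It was seen in 31 of 57 Batch 2 members and 15 of 97 Batch 1 members, a difference between mice that was not tested. *Rhd*, *Rhag* and *Kel*, which encode blood group proteins, were also higher, at no more than 39.5 CPM in Batch 1 members.

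The red cell membrane and skeleton list, which shares members with the erythroid markers, among them *Slc4a1*, *Rhag* and *Rhd*, had 9 of 17 tested genes higher and 0 lower. *Epb4.1*, which encodes protein 4.1 linking spectrin to actin, rose from 37.5 to 480 CPM in Batch 1 and from 58.4 to 1516 CPM in Batch 2. *Sptb*, which encodes a spectrin beta chain, rose from 3.27 to 6.58 CPM in Batch 1 and from 0.613 to 57.3 CPM in Batch 2, on 1 and 7 UMIs in members. *Add1*, which encodes an adducin, had a log2 fold change of 0.70 and did not pass the test (adjusted p = 0.899, edgeR).

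Heme synthesis was covered unevenly. Of 8 tested pathway enzymes, *Alas2* included, 4 were higher and 0 lower. *Urod*, which acts before the final mitochondrial steps, was at 132 and 38.0 CPM in Batch 1 and at 311 and 30.8 CPM in Batch 2. *Fech*, which inserts iron into the ring, was at 296 and 32.0 CPM in Batch 1 and at 688 and 18.6 CPM in Batch 2, with a log2 fold change of 4.21 (SE 0.36, adjusted p = 6.14e-29, edgeR). *Alad* and *Cpox*, other enzymes of the pathway, had log2 fold changes of 0.65 and 1.49 and did not pass the test.

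Of 10 tested iron handling genes, 5 were higher and 0 lower. *Slc25a37*, the mitochondrial iron importer mitoferrin-1, was at 237 and 819 CPM in members and at 16.4 and 13.6 CPM in remaining cells. *Tfrc*, the transferrin receptor that brings iron into the cell, was higher in the fit (log2 fold change 3.03, SE 0.49), but unevenly. It was at 32.9 CPM in Batch 1 members from 5 UMIs in 3 cells and at 336 CPM in Batch 2 members from 41 UMIs in 16 cells. The ferritin chains *Fth1* and *Ftl1* were higher by 0.64 and 0.96, and *Ncoa4*, the receptor that takes ferritin to lysosomes, by 3.04. The call of *Fth1* was lost in 8 of 11 other settings and that of *Ftl1* in 3.

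Genes of late maturation were higher as well. In the terminal maturation and organelle clearance list, 12 of 15 tested genes were higher and 0 lower. *Mkrn1*, an E3 ubiquitin ligase, reached 875 and 2007 CPM in members against 60.6 and 65.6 CPM in the rest. *Ube2l6*, an E2 enzyme for ubiquitin and ISG15, reached 414 and 680 CPM against 20.4 and 6.79 CPM. *Trim10*, an erythroid member of the tripartite motif family, had the largest log2 fold change of the genes reaching 50 CPM in members of both batches, 8.47 (SE 0.53), and was at 78.9 and 729 CPM in members. *Bnip3l*, the mitophagy receptor that clears mitochondria from reticulocytes, rose from 294 to 895 CPM in Batch 1 and from 353 to 1769 CPM in Batch 2.

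Of the mitochondrial transcripts, none of the 26 tested genes passed the test in either direction. Their summed level was 20897 CPM in Batch 1 members and 19709 in the rest, and 82077 and 76609 CPM in Batch 2. The 85 tested ribosomal protein genes also gave 0 calls, with a median log2 fold change of -0.20.

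Antioxidant and metabolic enzymes of the red cell were higher in 9 of 14 tested genes and lower in 0. *Bpgm*, which makes the 2,3-bisphosphoglycerate that lowers oxygen affinity, was at 559 and 1049 CPM in members and at 22.9 and 12.1 CPM in the rest. *Gpx1*, a glutathione peroxidase, was at 2506 and 5857 CPM against 408 and 413 CPM, and was seen in 65 of 97 and 52 of 57 members. *Prdx2*, an abundant peroxiredoxin of red cells, and *Blvrb*, biliverdin reductase B, were higher by 2.59 and 3.58. *Sod1* did not pass, at -0.30 (adjusted p = 0.984, edgeR).

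None of 7 tested genes of early progenitors passed the test, with *Kit*, the stem cell factor receptor, at a log2 fold change of -0.23 and *Gata2*, a progenitor factor, at 0.45. Of the erythroid transcription factors and receptors, 4 of 14 were higher and 0 lower. *Klf1*, the erythroid Krüppel-like factor, rested on 2 and 3 UMIs in the members, and *Nfe2*, a factor of late erythroid genes, on 3 and 17. *Gata1* did not pass the expression filter. *E2f2*, a late erythroid E2F factor, was at 85.5 and 213 CPM in members and 15.3 and 17.9 CPM in the rest.

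Cell cycle genes were higher in 4 of 24 tested, the proliferation marker *Mki67* and the G2 and mitosis genes *Ube2c*, *Ccnb2* and *Cenpf*, and lower in 0. Over all tested genes, 1.69% were higher. With no replicate block, 1 of these 24 was higher. *Ccnb2* and *Cenpf* were at only 26.3 and 32.9 CPM in Batch 1 members. *Mki67* differed in extent between mice, with 15 UMIs in 5 Batch 1 members and 197 UMIs in 18 Batch 2 members, 3 of which held 67.5% of these UMIs. *Ube2c*, an E2 enzyme of the anaphase-promoting complex, was seen in 14 members of each batch. *Pcna*, which marks DNA synthesis, was at -0.28 on the log2 scale and did not pass. *Malat1*, a nuclear RNA, was present in all 154 members and differed by -0.22 (adjusted p = 0.776, edgeR). In members with at least 75% globin it was at 4821 CPM in Batch 1 and 19023 CPM in Batch 2, while the cells under 5% globin had 16133 and 32790 CPM.

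Embryonic and minor globins were detected at trace levels beside the adult genes. *Hbb-y*, the embryonic epsilon-like beta globin, gave 54 UMIs in 36 Batch 1 members and 36 UMIs in 24 Batch 2 members, or 2.99 and 1.94 per 10000 adult globin UMIs. *Hbb-bh1*, another embryonic beta-like gene, gave 19 and 8 UMIs, and *Hbq1b*, a theta globin, 10 and 26. Of 4 tested genes, these 3 were higher and 0 were lower. Genes low in the remaining cells passed the limit on low counts through the members, so this count is a description.

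**Figure D2:**
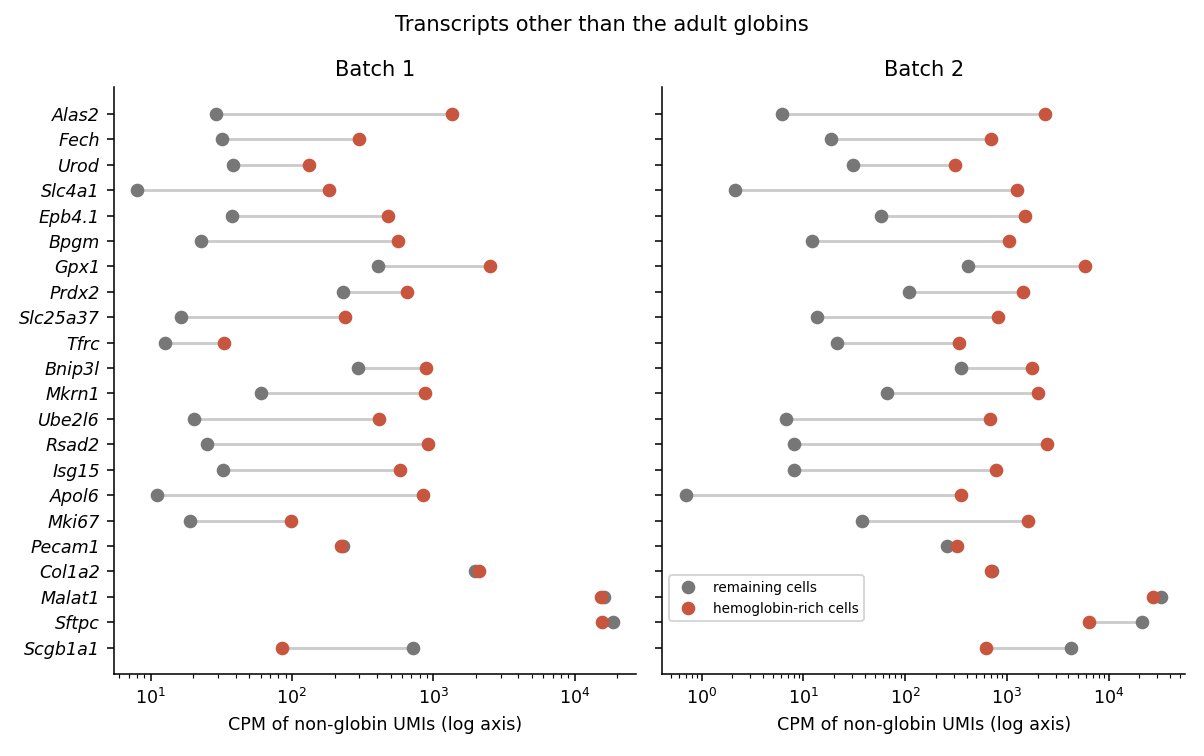
Level of 22 genes in hemoglobin-rich cells (red) and remaining cells (gray) of each batch, as CPM of non-globin UMIs on a log axis. The erythroid genes in the upper rows are higher in members of both batches, *Pecam1*, *Col1a2* and *Malat1* overlap, and *Scgb1a1* is lower in members.

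Genes known for their response to interferon stood among the largest differences. *Rsad2*, which encodes viperin, and *Apol6* were among the 15 largest increases, and the others in this paragraph were chosen after their values were seen. *Rsad2* was at 921 and 2474 CPM in members and at 24.9 and 8.01 CPM in remaining cells, with a log2 fold change of 6.73 (SE 0.30, adjusted p = 8.18e-104, edgeR). *Apol6*, an apolipoprotein L gene, was at 842 and 352 CPM in members and at 11.1 and 0.701 CPM in the rest. *Isg15*, a ubiquitin-like modifier, was at 585 and 778 CPM against 32.7 and 8.01 CPM. *Isg20*, an exonuclease gene that is also in the erythroid list, and *Ifit1* were higher by 4.69 and 3.76. Other genes of the response did not pass, with *Ifit3* at 0.79, *Irf7* at 1.08 and *Oasl2* at 1.06.

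*Rsad2* was seen in 55.4% of the 65 Batch 1 members with *Alas2* and in 28.1% of the 32 without. In Batch 2 it was seen in 77.1% of 48 with *Alas2* and in 11.1% of 9 without. *Apol6* was seen in 66.2 and 31.3% in Batch 1 and in 43.8 and 11.1% in Batch 2. *Isg15* was seen in 29.2 and 25% in Batch 1 and in 45.8 and 11.1% in Batch 2. Members with *Alas2* also had higher globin shares, so these shares are not independent of it. *Col1a2*, a fibroblast collagen, was seen in 46.2 and 46.9% of Batch 1 members and in 33.3 and 44.4% of Batch 2 members with and without *Alas2*.

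Other genes among the 15 largest increases at 50 CPM or more were *Tspo2*, an erythroid relative of the translocator protein (65.8 and 254 CPM in members), *Slfn14*, a ribosome-associated endoribonuclease gene (52.6 and 188 CPM), *Syt14*, *2410076I21Rik* and *Gm26025*.

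The level of erythroid markers was higher in cells with a higher globin share. In Batch 1 the summed erythroid markers were at 467 CPM in cells under 5% globin, 686 CPM at 5 to 25%, 2363 CPM at 25 to 50%, 7668 CPM at 50 to 75% and 35422 CPM at 75% or more. In Batch 2 the same steps held 243, 595, 3787, 15555 and 43030 CPM. *Alas2* was seen in 19 of 43, 41 of 49 and 5 of 5 members of these last 3 ranges in Batch 1, and in 11 of 19, 26 of 27 and 11 of 11 in Batch 2. *Tfrc* was seen in 3 of 43, 0 of 49 and 0 of 5 members in Batch 1, and in 3 of 19, 8 of 27 and 5 of 11 in Batch 2. A count of 0 in these cells limits cells with a UMI, not cells that express the gene.

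**Figure D3:**
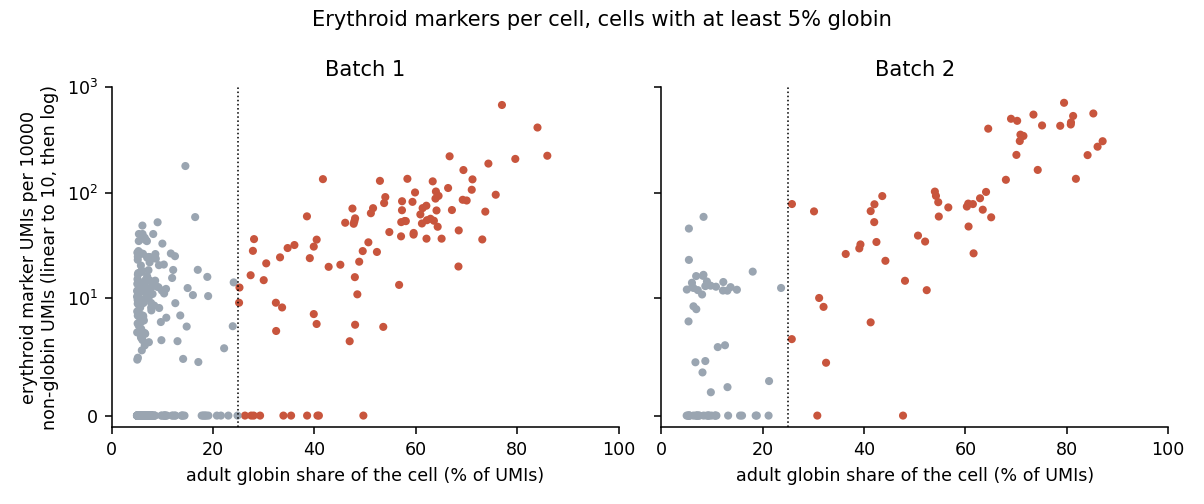
Each point is 1 cell with at least 5% adult globin, by globin share (x axis) and erythroid marker UMIs per 10000 non-globin UMIs (y axis, linear to 10 and log above). Members, in red, had medians of 44.0 in Batch 1 and 78.2 in Batch 2, and 10 and 2 of them had none.

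At the cut-off used here, erythroid markers marked only a part of the members. To compare cells at equal depth, a cell was counted as marked by a list when at least 3 of 400 sampled non-globin UMIs came from at least 2 of its genes. Erythroid markers marked 30 of 97 Batch 1 members and 31 of 57 Batch 2 members, compared with 6 of 2292 and 7 of 7498 remaining cells. These counts depend on the cut-off. At least 1 of the 400 UMIs came from the erythroid list in 72.2 and 84.2% of members. The same held for 19.1 and 10.5% of remaining cells. Lists for other cell types, leukocytes and platelets included, marked 74 of 97 (76.3%) and 34 of 57 members (59.6%). They marked 85.9 and 74.9% of remaining cells. Only such a list, without the erythroid one, marked 49 and 23 members, both kinds marked 25 and 11, the erythroid list alone 5 and 20, and no list 18 and 3. The members are therefore called hemoglobin-rich here.

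Fibroblast, endothelial and epithelial lists marked members of both batches. Fibroblast markers marked 40 of 97 Batch 1 members (41.2%, remaining cells 43.8%) and 10 of 57 Batch 2 members (17.5%, remaining cells 18.7%). Endothelial markers marked 26 (26.8%, remaining cells 22.5%) and 12 members (21.1%, remaining cells 21.5%). Epithelial markers marked 8 (8.25%, remaining cells 14.7%) and 13 members (22.8%, remaining cells 30.6%). When *Sftpc*, *Sftpb* and *Scgb1a1* were left out of the list, they marked 5 (5.15%, remaining cells 7.11%) and 2 members (3.51%, remaining cells 12.1%). *Sftpc* UMIs were in 84.3% of all remaining Batch 2 cells. Between 0 and 2 members per batch were marked by mural, myeloid, neutrophil or lymphocyte lists. Among remaining cells of Batch 1 and Batch 2, the mural list marked 4.41 and 2.61% and the myeloid list 4.80 and 4.44%. The neutrophil list marked 1.00 and 1.49% of them and the lymphocyte list 0.480 and 0.280%.

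In the fit, endothelial markers had 0 of 12 genes called and a median log2 fold change of 0.08, and fibroblast markers had 0 of 10 called and a median of -0.03. *Pecam1*, an endothelial adhesion molecule, was at 224 and 319 CPM in members and at 231 and 257 CPM in the rest. *Col1a2* was at 2092 and 688 CPM against 1970 and 720 CPM. Whether these members were droplets with more than 1 cell, or lung cells with globin RNA from the suspension, was not tested, and no doublet caller was run.

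Among members with at least 75% globin, all 5 of Batch 1 and all 11 of Batch 2 were marked by erythroid genes. Another list also marked 3 of these 5 and 4 of these 11 cells. In Batch 2 it was the epithelial list, which marked 0 of the 11 when *Sftpc*, *Sftpb* and *Scgb1a1* were left out. In those of Batch 2, endothelial markers were at 211 CPM and fibroblast markers at 702 CPM, compared with 2943 and 2040 CPM in cells under 5% globin. In Batch 1 the corresponding 5 cells held 1886 and 3982 CPM, compared with 3817 and 7113 CPM. Epithelial markers were at 2096 CPM in these Batch 1 cells and 23849 CPM in cells under 5% globin. In Batch 2 they were at 5475 and 30744 CPM, with 2404 CPM in members at 50 to 75% globin.

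**Figure D4:**
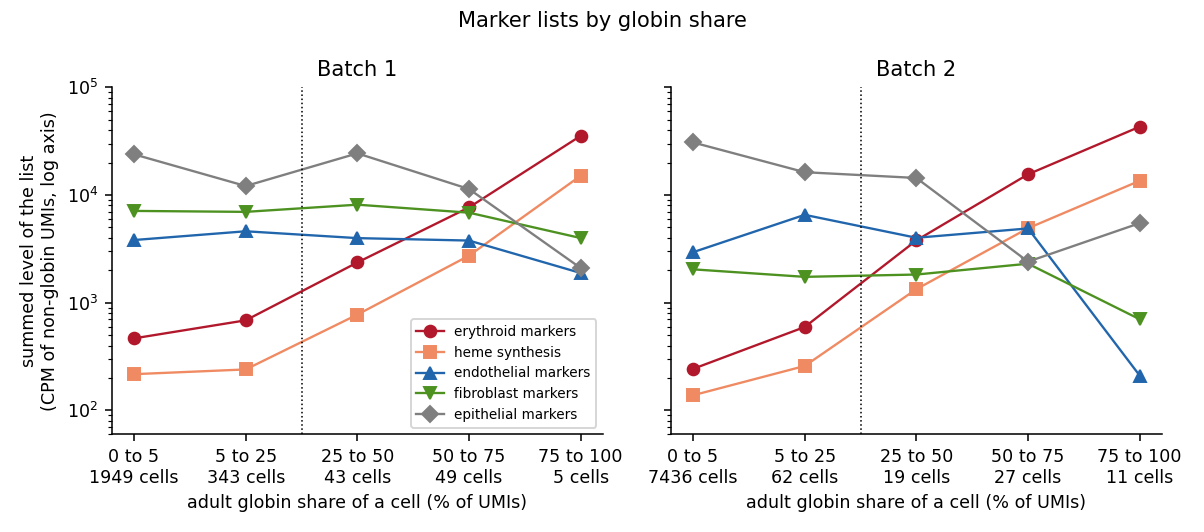
Summed level of 5 gene lists in cells grouped by adult globin share, as CPM of non-globin UMIs on a log axis, with the number of cells below each group and a dotted line at 25%. Erythroid and heme synthesis genes are higher at each step in both batches, and fibroblast markers lie near their level in the remaining cells up to 75%.

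When the members marked by another list were left out, 23 members remained in each batch. The remaining cells were not filtered in this way, so lower levels of those lists' genes in members were built in. This comparison, added after the data were seen, gave 97 genes higher and 65 lower. Its median over all tested genes was -0.70, and both the median and the lower genes carry this filter's effect. Fibroblast markers, for example, went from 0 to 5 of 10 genes lower. Erythroid markers had 12 of 13 tested genes higher and 0 lower. *Alas2* was then higher by 7.02 and *Rsad2* by 6.68 on the log2 scale.

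Genes lower in members included those of airway secretory and alveolar cells. Of 15 tested epithelial markers, 8 were lower and 0 higher. The count of lower markers fell to 2 with DESeq2, 2 at a globin limit of 10%, 3 with no filter beyond 1 count and 0 with no replicate block. *Scgb1a1*, the secretoglobin of club cells, was at 85.5 and 623 CPM in members and at 717 and 4213 CPM in the rest, a log2 fold change of -2.93 (SE 0.23). *Scgb3a2*, another club cell secretoglobin, was at 32.9 and 73.7 CPM against 351 and 853 CPM. *Sftpc*, surfactant protein C of alveolar type 2 cells, was at 15582 and 6316 CPM against 18575 and 21337 CPM, a difference carried by Batch 2. *Rtkn2* and *Scnn1a*, genes of alveolar epithelium, and *Cbr2* and *Dcxr*, carbonyl reductases of airway cells, were also among the 15 largest decreases.

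Other large decreases included neutrophil genes and *Retnla*, which encodes a resistin-like protein and was at 13.2 and 24.6 CPM in members and at 123 and 51.5 CPM in the rest. Of 5 tested neutrophil markers, 3 were lower and 0 higher, with 0 lower by DESeq2 and 0 with no replicate block. *Stfa1*, *Stfa2*, *Stfa2l1*, *BC100530*, *BC117090*, *Gm5483* and *2010005H15Rik* are related cystatin-like genes of the stefin A cluster with near-identical copies, so single values are uncertain. *Stfa1* was at 52.6 and 90.1 CPM in members and at 206 and 739 CPM in the rest. *S100a9*, a calcium-binding protein of neutrophils, was at 204 CPM in members and 241 in the rest in Batch 1, and at 16.4 and 656 CPM in Batch 2. Members rested on few UMIs for these genes, at most 31 per batch.

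Platelet genes were called higher through 1 cell. *Pf4*, platelet factor 4, had 393 UMIs in Batch 2 members, of which 392 were in a single cell that also held all 55 *Ppbp* and all 31 *Gp9* UMIs. In Batch 1 members *Pf4* was at 26.3 CPM, lower than the 203 CPM of the remaining cells. Of 7 tested platelet genes, 4 were higher with this cell, and without it 0 of 3 were higher and 1 was lower, with *Pf4* at -2.86 on the log2 scale (adjusted p = 0.000226, edgeR). Without this cell, all 14 tested erythroid markers were again higher.

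Erythroid transcripts were also found in remaining cells, and for several genes at close to the same number per globin UMI. These ratios come from 1 mouse per batch, are given without intervals and were not tested. *Alas2* had 11.4 UMIs per 10000 adult globin UMIs in Batch 1 members and 9.05 in the remaining cells, and 15.4 and 11.8 in Batch 2. *Rsad2* had 7.76 and 7.79 in Batch 1 and 16.3 and 15.2 in Batch 2. *Hbb-y* had 2.99 and 2.60 in Batch 1 and 1.94 and 1.41 in Batch 2. *Apol6* was lower per globin UMI outside the members, at 7.10 and 3.46 in Batch 1 and 2.32 and 1.33 in Batch 2.

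Genes with wider expression had far more UMIs per globin UMI in remaining cells. *Mkrn1* had 7.37 in Batch 1 members and 19.0 in remaining cells, and 13.2 and 125 in Batch 2. *Fech* had 2.50 and 10.0 in Batch 1 and 4.54 and 35.3 in Batch 2. *Isg15* had 4.93 and 10.2, and 5.13 and 15.2.

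**Figure D5:**
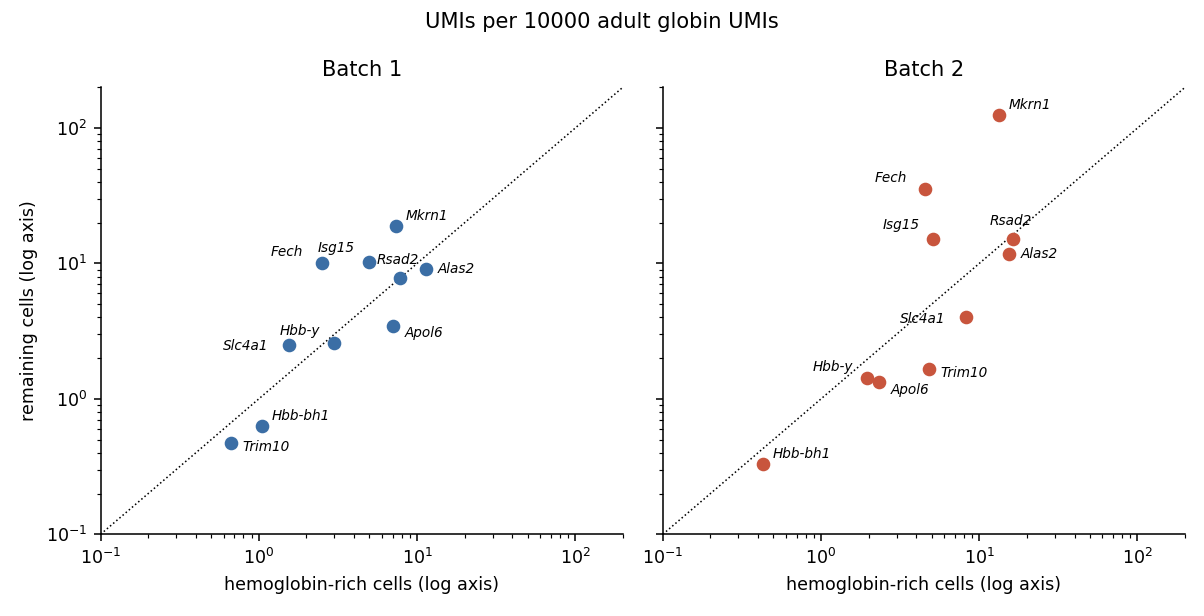
UMIs of 10 genes per 10000 adult globin UMIs in hemoglobin-rich cells (x axis) and remaining cells (y axis) of each batch, both log axes, with a dotted line of equality. *Alas2*, *Rsad2* and *Hbb-y* lie near the line in both batches, and *Mkrn1* and *Fech* lie above it.

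Members had somewhat fewer non-globin UMIs than the remaining cells, with medians of 1241 and 1304 in Batch 1 and of 1808 and 1978 in Batch 2. Detected genes had medians of 753 and 789 in Batch 1 and of 867 and 1029 in Batch 2. Mitochondrial transcripts made up a median of 2.07% of non-globin UMIs in members and 1.86% in the rest in Batch 1, and of 7.45 and 7.04% in Batch 2. The batches shared 0 cell barcodes, and 1 member, in Batch 2, had a barcode that differed by 1 base from another cell's.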

How the data were processed

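The deposited matrices held Drop-seq UMI counts per gene and cell, made by the authors with Drop-seq tools and Bowtie2 2.2.7 on mm10. No normalization had been applied, and the study's limit of 10% mitochondrial UMIs had not: it leaves 2388 and 5615 of the 2389 and 7555 deposited cells. All deposited cells were used here. The members, gene lists and tests were chosen with earlier results of these data known.

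Counts of the 4 adult globins were removed, and the others were summed over members and over remaining cells of each batch. The 4 sums were fitted with edgeR 4.0.16 in R 4.3.3 (TMM scaling, filterByExpr, quasi-likelihood test), with the batch as a block because both sums of a batch come from the same mouse. P-values were adjusted by Benjamini-Hochberg over 12104 genes at 0.05, and SE values were derived from the F statistic. The fit was tested on simulated counts with the same gene levels in both batches. That test did not cover the batch differences of these data. Shares carry Wilson 95% intervals, which cover counting error only. Shares of cells were repeated after thinning each cell to 400 non-globin UMIs (seed 1). Thinned marker calls, cell bins and ratios were described without tests. Named genes were those of the lists and, per direction, the 15 with the largest log2 fold change among called genes with at least 50 CPM in the higher sum of each batch and the same direction in both. Older symbols were matched through RefSeq synonyms. Gene coordinates came from GENCODE vM21 (GRCm38) and promoter sequences from RefSeq (GRCm38.p6). DESeq2 1.42.0 served as an alternative. Some genes of the lists are not reported here.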

Additional observations from a re-analysis of the deposited data

How the results depend on the processing

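Moving the globin limit to 10% gave 224 cells and to 50% gave 92 cells, compared with 154. In place of 261 calls (205 higher and 56 lower), the 10% limit gave 168, of which 28 were lower. DESeq2 gave 136 (126 higher and 10 lower). The fit with no replicate block gave 47 (47 higher and 0 lower). No filter beyond 1 count gave 37 lower. Leaving out the members marked by another list, with the remaining cells not filtered in this way, gave 162 (97 higher). The 50% limit, the mitochondrial limit, no TMM, leaving out every listed globin gene, remaining cells under 5% globin and leaving out the cell with most *Pf4* UMIs moved the total by less than 1.5 times. Causes were not tested. The pairing of both sums of a batch comes from the design, since they are from the same mouse.

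Of 89 genes of the lists and of the largest changes that passed the test, of which 83 to 89 could be fitted under each setting, 59 no longer did with no replicate block, 26 with DESeq2, 21 at the 10% limit, 19 without the members marked by another list and 0 to 10 under each other setting. With no replicate block, 12 of 14 erythroid markers, 4 of 17 membrane and skeleton genes, 5 of 15 terminal maturation genes, 1 of 10 iron handling genes and 0 of 14 transcription factors and receptors were higher. *Tgfbi* turned from lower to 0.24 at the 10% limit. *Pf4* turned to -2.83 at the 50% limit, to -2.86 without the cell with most *Pf4* UMIs, and to -12.60 without the members marked by another list, where no *Pf4* UMI was left. Without Batch 1 or Batch 2, as differences without a test, *Pf4* ranged from -2.90 to 6.26, *Ppbp* from -5.28 to 7.47, *Gp9* from -3.48 to 6.98 and *Gp1bb* from -0.73 to 5.95. Among genes that did not pass, *Kit* turned to 0.24 and 0.36 at the 10 and 50% limits, *Gata2* to -0.82 without the members marked by another list, *Pecam1* to -0.22 at the 50% limit and -0.33 without those members, and *Col1a2* to 0.072, 0.012 and 0.013 at the 10% limit, with DESeq2 and with no TMM. With 2 mice and 5 to 31 UMIs behind several lower or late erythroid genes, depth and number of animals limit these values.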
